A study of Caenorhabditis elegans with 29 samples.

Results

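The genes described here are the nuclear hormone receptor (nhr) genes of the nematode Caenorhabditis elegans that were expressed in dissected gonads. Every row of the table named nhr- and a number was taken, and a gene was kept when its group average reached 10 normalized reads in at least 1 of the 7 groups of the RNAi experiment. This left 130 of 283 nhr genes, in a table of 45627 genes, and the other 153 stayed under the minimum. The last genes inside were nhr-141 at 10.8, nhr-232 at 10.5 and nhr-212 at 10.4 normalized reads in their highest group, and the first outside were nhr-205 at 9.84, nhr-176 at 9.73 and nhr-266 at 9.47. These averages chose the genes, so a count over the 130 describes the set and is read beside the same count over all 12866 genes that reach 10 in any of the 7 groups. Of the 130 genes, 68 reached the minimum in a control group. The remaining 62 reached it in RNAi groups and in no control, which fixes that they were higher in an RNAi group, and for them levels and folds are given with no p-value in the RNAi comparisons.

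RNA was sequenced from gonads dissected at 24 °C, in 29 libraries that form 10 groups. In the RNAi experiment (21 libraries, 3 a group) every group carried edIs6 on chromosome IV, an integrated array holding unc-119p::unc-119::gfp and rol-6, with the reporter under the unc-119 promoter, which is active in neurons. P-granule RNAi gonads came from F1 worms fed RNAi bacteria for 4 targets at once: the helicase genes glh-4 and glh-1 and the genes pgl-3 and pgl-1. Their proteins make up P granules, which are condensates of RNA and protein in the germline. Control gonads came from worms on bacteria with the empty vector. RNAi and control gonads were dissected from fourth-stage larvae (L4) and from adults of 1 and 2 days (Day 1, Day 2), and Day 2 RNAi gonads with visible UNC-119::GFP (GFP-positive) were kept apart from those without (GFP-negative); the L4 and Day 1 RNAi groups are labelled GFP(-). The mutant experiment held Day 1 gonads of glh-1(gk100) I (n = 2), of pgl-1(ct131) him-3(e1147) IV (n = 3) and of wild type (n = 3). The pgl-1 strain therefore differs from wild type in him-3 as well, a gene of meiotic chromosomes, and the effects of the 2 alleles cannot be told apart. A library pooled 75 to 100 gonads in controls and 125 to 150 in RNAi groups. Adult worms on RNAi were picked for sterility. Their small gonads entered whole, whereas large ones and all control gonads were cut at the bend, so the part of the gonad sampled is not the same in every group. L4 worms could not be scored, but above 80 percent of their adult siblings on RNAi were sterile.

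Nuclear hormone receptors are transcription factors that bind DNA through a zinc finger domain and, in many cases, a small lipophilic ligand such as a steroid or a fatty acid through a second domain. The family is greatly expanded in nematodes: a few members have clear counterparts in insects and vertebrates (DAF-12 and NHR-8 with the vitamin D and liver X receptors, NHR-23 with ROR, NHR-25 with SF-1), while most descend from a receptor related to vertebrate HNF4. The known members are best studied in the intestine, epidermis and neurons, where they control fat metabolism, moulting, detoxification and cell identity; NHR-23 also acts in spermatogenesis.

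Depth ran from 1027223 to 9079321 reads per library. All 4 RNAi targets were lower in each RNAi group at every stage: pgl-1 lay between 4.36 and 161 normalized reads in RNAi libraries and between 1885 and 2648 in control libraries, and glh-1 between 70.5 and 435 in RNAi libraries against 1353 to 2784 in control libraries. The pgl-1 mutant had 122 to 308 normalized reads of pgl-1, against 1113 to 2339 in wild type; glh-1(gk100) gonads had 1942 and 2311 reads of glh-1, against 954 to 2218 in wild type, so total reads of that gene do not mark the allele. The gene unc-119 fitted the reporter sort, with 969 to 1145 normalized reads in GFP-positive, 89.5 to 177 in GFP-negative and 36.6 to 54.8 in Day 2 control gonads. Markers of other tissues moved with the groups. Summed over 10 intestinal genes, the level was 144738 to 192778 normalized reads in GFP-positive, 103218 to 134525 in GFP-negative and 19464 to 32022 in Day 2 control gonads, and summed over 8 neuronal genes it was 3597 to 4402, 1180 to 1573 and 420 to 493. Muscle (6 genes) followed with 6058 to 7887, 4071 to 4773 and 432 to 491, and the 8 somatic gonad genes with 1358 to 1448, 1193 to 1617 and 134 to 159. The 5 oocyte markers ran the other way, with 6455 to 9009, 14707 to 17938 and 34428 to 39979, as did the 5 germ cell genes, 2 of which are RNAi targets, with 1700 to 2384, 2979 to 3760 and 10482 to 11122. Without unc-119, which the reporter array carries, the other 7 neuronal genes summed to 2605 to 3257 in GFP-positive, 1091 to 1396 in GFP-negative and 383 to 446 in Day 2 control gonads. Some defining markers were at 0: the muscle gene hlh-1 in all 29 libraries, the epidermal genes dpy-7 and grd-10 in all 3 Day 2 control libraries, and the neuronal genes rab-3 and snt-1 and the intestinal gene elt-2 in all 3 wild-type libraries. In bulk samples such as these, fewer cells of a type and less RNA per cell cannot be told apart. The shallowest library of Day 1 control and of Day 1 RNAi stood apart: they held reads of 17627 and 19256 genes, more than the deeper libraries of their groups (13453 and 13553 in control; 16902 and 16947 in RNAi).

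The 130 receptor genes together drew a larger share of reads in adult RNAi gonads and in mutant gonads than in their controls (the plot of receptor reads by library). Since 62 of the 130 entered through RNAi groups alone, the choice of genes bears on the direction in the RNAi groups. The RNAi sums are therefore a description. Their CPM (reads scaled to the depth of the library) summed to 2098 ± 117 in GFP-positive, 1291 ± 135 in GFP-negative and 690 ± 42.2 in Day 2 control gonads (SD, n = 3 each), and no library of 1 of these 3 groups overlapped another group. On Day 1 the values were 1109 ± 182 in RNAi and 779 ± 55.7 in control gonads, again without overlap (974, 1038 and 1316 against 734, 761 and 841). At L4 they overlapped: RNAi libraries had 1261, 752 and 919 CPM and control libraries 961, 716 and 841. The mutants, which the minimum did not use, had 1026 and 962 CPM in glh-1(gk100) gonads and 1515, 1046 and 1008 in pgl-1 gonads, against 640, 507 and 798 in wild type. The median receptor gene averaged 33.7 normalized reads in GFP-positive, 13.2 in GFP-negative and 2.30 in Day 2 control gonads, and 110 of the 130 genes (84.6 percent) had their highest average in the GFP-positive group, beside 35.9 percent of all 12866 genes reaching 10. The rule used these same averages, so this is a description. In that group 124 genes reached 10 normalized reads, of which 37 did so in no other group, and 26 genes reached it in all 7.

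**Figure D1:**
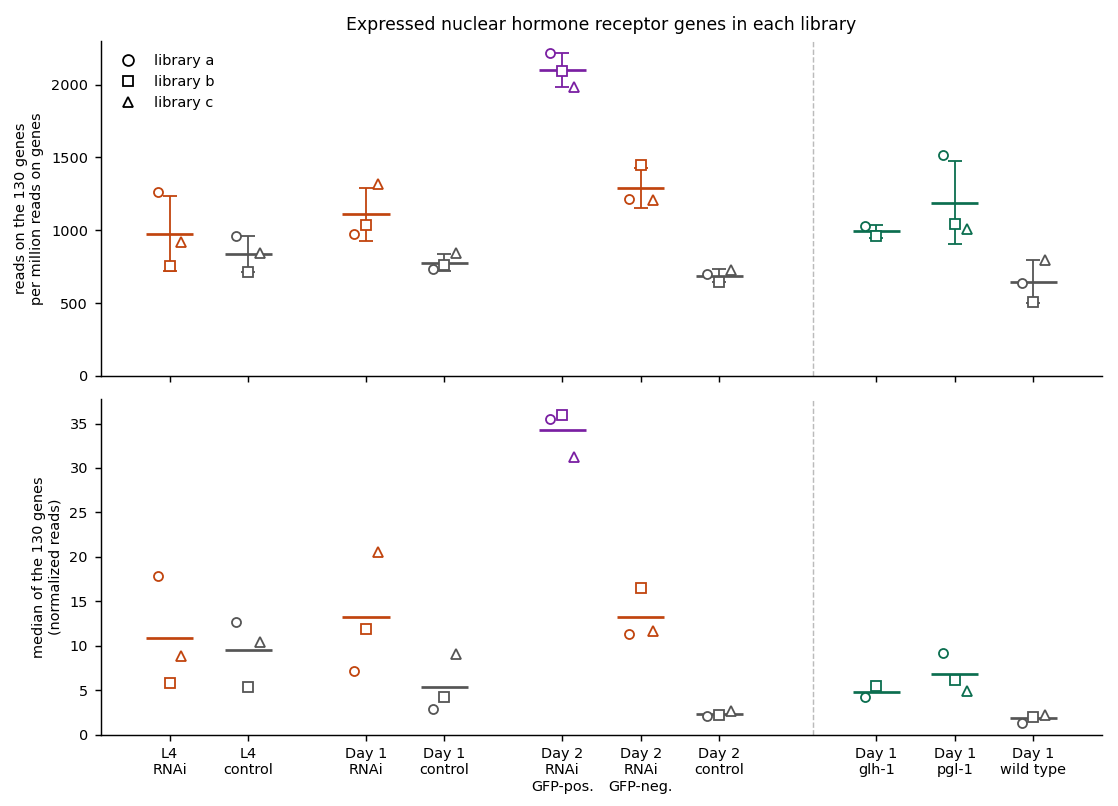
Reads on the 130 receptor genes by library. Each point is 1 library, grouped by stage and treatment, with horizontal bars at the group mean and, in the upper panel, error bars of 1 SD; the lower panel gives the median receptor of each library. In the upper panel the 3 GFP-positive libraries lie at 1982 to 2215 CPM, above the 1211 to 1448 of GFP-negative and the 643 to 726 of Day 2 control gonads.

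A handful of receptors dominated Day 2 control gonads. Per kilobase of exon, the 5 highest in Day 2 control gonads were nhr-86 at 187, nhr-49 at 166, nhr-23 at 137, nhr-274 at 98.2 and nhr-66 at 96.8 normalized reads per kilobase, followed by nhr-71 at 31.7. The same 5 genes led in L4 control and in wild-type gonads, whereas in GFP-positive gonads nhr-49 was first at 254 and was followed by nhr-3 at 147, nhr-46 at 124, nhr-45 at 107 and nhr-97 at 105. The 5 leading genes of the controls, picked after their levels were seen, took 14.8 ± 1.35 percent of receptor reads in GFP-positive, 30.6 ± 2.25 percent in GFP-negative and 63.7 ± 0.270 percent in Day 2 control gonads (SD, n = 3 each). Their own summed CPM was 308 ± 11.3, 393 ± 13.2 and 439 ± 26.7 in those 3 groups. The other 125 genes had 1789 ± 127, 898 ± 124 and 251 ± 15.7 CPM in the same order. Since the 5 were taken as the highest in the control and the 125 include the 62 that entered through RNAi groups alone, the choice of genes bears on the direction of this split. At L4 the same 5 took 37.8 ± 5.03 percent of receptor reads in control and 40.8 ± 15.4 percent in RNAi gonads. On Day 1 they took 54.4 ± 4.74 percent in control and 35.8 ± 8.84 percent in RNAi gonads (SD, n = 3 each).

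At the level of single genes, the authors' deposited table called 120 of 130 receptors higher and 5 lower in GFP-positive than in Day 2 control gonads at an adjusted p below 0.05, where 52 percent of all genes reaching 10 were called higher and 36.6 percent lower. Against GFP-negative gonads, the same deposited table called 80 receptors higher and 3 lower in GFP-positive gonads (23.4 and 23.9 percent of all such genes). For GFP-negative against Day 2 control it called 96 higher and 4 lower (46.3 and 31.3 percent), and for Day 1 RNAi against Day 1 control 17 higher and 1 lower of 110 tested (20.9 and 11.2 percent). None of 79 tested was called at L4, where 0.12 and 0.0829 percent of genes were called; limma voom on the reads recovered for each library also gave 0, with 8 receptors at an unadjusted p below 0.05. The median deposited log2 fold change over the receptors was 3.10 for GFP-positive, 2.12 for GFP-negative, 0.71 for Day 1 RNAi and 0.05 for L4 RNAi, beside 1.36, 0.79, 0.27 and 0.02 over all genes reaching 10. Much of this is fixed by the choice of genes, since 62 of them enter through RNAi groups alone. Between the reporter groups it is fixed for the 37 receptors that reached 10 in the GFP-positive group only. Among receptors at 10 or more in Day 2 control itself, the deposited table called 23 of 32 higher and 5 lower in GFP-positive gonads, where 22.7 percent of all genes at 10 or more in that control were called higher and 65.1 percent lower. The like counts were 17 higher and 4 lower of 32 for GFP-negative gonads (19.8 and 55.5 percent) and 2 higher and 1 lower of 38 on Day 1 (12.9 and 17.4 percent). Of 79 receptors at 10 or more in GFP-negative gonads, 50 were called higher and 3 lower in GFP-positive gonads. Among all genes at 10 or more in that group the shares were 20.4 and 29.9 percent.

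Limma voom on the recovered reads tested all 130 receptors in every RNAi comparison. For GFP-positive against Day 2 control gonads it called 124 higher and 4 lower, where 55.6 and 28.7 percent of all genes reaching 10 were called. It called 99 higher and 4 lower in GFP-negative gonads against control (45.5 and 23.9 percent), and 79 higher and 2 lower in GFP-positive against GFP-negative gonads (23.7 and 11.1 percent). On Day 1 the counts were 25 and 1 (20.1 and 7.64 percent). These counts too hold the 62 receptors that entered through RNAi groups, and the 37 that reached 10 in the GFP-positive group only. Among receptors at 10 or more in the control of the comparison, limma voom called 26 higher and 4 lower of 32 in GFP-positive gonads, where 28.5 and 51 percent of all such genes were called. It called 19 higher and 4 lower of 32 in GFP-negative gonads (21.3 and 42.6 percent) and 3 higher and 1 lower of 38 on Day 1 (9.94 and 12.8 percent). Of 79 receptors at 10 or more in GFP-negative gonads, limma voom called 51 higher and 2 lower in GFP-positive gonads. Among all 10184 genes at 10 or more in that group it called 2356 higher and 1419 lower. At L4 the backgrounds over all genes reaching 10 were 0 and 0.0544 percent. Of 126 receptors with a value in the mutant experiment, limma voom called 48 higher and 1 lower in pgl-1 (27.6 and 10.3 percent; of 26 at 10 or more in wild type 7 and 1, beside 13.5 and 18.5 percent) and 6 higher and 0 lower in glh-1(gk100) gonads (6.51 and 1.85 percent).

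**Figure D2:**
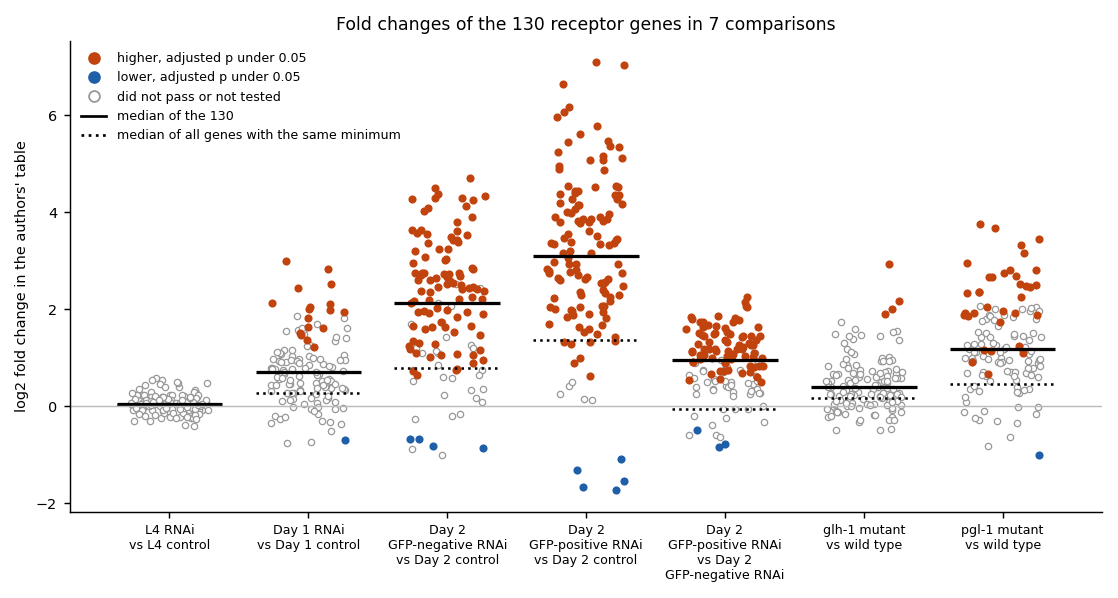
Deposited log2 fold changes of the receptor genes in the 7 comparisons of the authors' deposited table. Each point is 1 gene, with those at an adjusted p below 0.05 drawn apart; the medians lie at 3.10 for GFP-positive and 2.12 for GFP-negative gonads against Day 2 control, and at 0.05 at L4.

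Folds against Day 2 control depend on the scale. Over genes averaging 100 or more in both groups, the deposited log2 fold change was lower than the log2 ratio of the deposited averages by a median of 0.46 for GFP-positive (4048 genes) and 0.19 for GFP-negative gonads (4322 genes), and by 0.25 for GFP-positive against GFP-negative gonads, while the shift was at most 0.06 in size elsewhere.

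The receptor gene with the highest group average, nhr-49 in GFP-positive gonads, controls fatty acid desaturation and the response to starvation. It had 539, 553 and 535 normalized reads in GFP-positive, 448, 528 and 446 in GFP-negative and 361, 332 and 369.9 in Day 2 control gonads. All 3 GFP-positive libraries lay above the other 6 on this scale, and the GFP-negative libraries lay above the controls. Its call depends on the scale: in the authors' deposited table the log2 fold change for GFP-positive against control was 0.15 (adjusted p 0.25), while limma voom on the recovered reads gave 0.62 ± 0.09 (SE, adjusted p 1.03e-05). For GFP-negative gonads the pair was 0.23 in the deposited table (adjusted p 0.095) and 0.42 ± 0.10 by limma voom (adjusted p 0.0014). On Day 1 it had 469.6, 413 and 408 reads in RNAi against 350.3, 343 and 319 in control gonads, which did not overlap, and neither test called it. In pgl-1 gonads it had 389, 352 and 409 reads against 250.4, 195 and 284 in wild type, and it rose by a deposited log2 fold change of 0.66 (adjusted p 0.0089 in the authors' deposited table).

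Of the 5 receptors called lower in GFP-positive than in Day 2 control gonads, 4 were the other abundant ones. NHR-66 is a partner of NHR-49 in lipid metabolism, and nhr-66 had 253, 234.7 and 286 normalized reads in GFP-positive, 286, 309.6 and 317 in GFP-negative and 482, 462 and 459 in Day 2 control gonads. Every control library lay above every RNAi library, and the deposited log2 fold changes were -1.32 for GFP-positive (adjusted p 9.12e-20) and -0.81 for GFP-negative gonads (adjusted p 1.92e-10) in the authors' deposited table. It was also the only receptor that fell on Day 1, with 329, 275 and 271 reads in RNAi and 446, 430.2 and 498 in control gonads, a deposited log2 fold change of -0.69 (adjusted p 0.0015). At L4 the order was not the same: 238, 350.2 and 320.4 reads in RNAi against 245, 238 and 285 in control gonads, with overlap. The exons of nhr-66 overlap those of serp-1.2, and since no strand-specific counting is stated, reads of the 2 genes cannot be told apart.

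NHR-23, the counterpart of ROR, drives moulting and spermatogenesis, and nhr-23 is the 1 receptor that the authors' deposited table marks as germline-enriched. It had 161, 149 and 179.6 normalized reads in GFP-positive, 239.8, 236.3 and 271 in GFP-negative and 347, 314 and 381 in Day 2 control gonads, a series of 3 groups without overlap. The log2 folds of the authors' deposited table were -1.55 for GFP-positive (adjusted p 5.65e-23) and -0.67 for GFP-negative gonads (adjusted p 1.11e-05), and it fell further in GFP-positive than in GFP-negative gonads (-0.85, adjusted p 9.30e-07). The 7 sperm markers summed to 264 to 924 normalized reads in GFP-positive, 693 to 855 in GFP-negative and 2.99 to 5.76 in Day 2 control gonads. Their sums at L4 were 732 to 1729 in RNAi and 1452 to 2521 in control gonads. The part of sperm in the level of nhr-23 was not tested. At L4 nhr-23 had 295, 309 and 352 reads in RNAi and 364, 265 and 358 in control gonads, and on Day 1 309, 291 and 229.9 in RNAi and 333, 344 and 328 in control gonads. Neither difference passed the deposited test.

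NHR-86, a receptor that responds to a bacterial phenazine in the intestine, showed the same order: nhr-86 had 114.3, 110.2 and 122 normalized reads in GFP-positive, 149, 178 and 174 in GFP-negative and 299, 256 and 238.6 in Day 2 control gonads. The 3 groups did not overlap, and the log2 folds of the authors' deposited table were -1.66 (adjusted p 6.06e-22) and -0.86 (adjusted p 3.37e-07) for the GFP-positive and GFP-negative gonads against control. It fell in pgl-1 gonads too, with 108, 98.3 and 84.8 reads against 197, 223 and 168 in wild type and a deposited log2 fold change of -0.997 (adjusted p 0.00021 in the authors' deposited table), the 1 receptor that fell in a mutant. In glh-1(gk100) gonads it had 151 and 124 reads, below all 3 wild-type libraries, and did not pass. Its exons overlap those of comt-3. The fourth gene, nhr-274, had 120.4, 142 and 128 reads in GFP-positive, 148, 157 and 124 in GFP-negative and 210.0, 210.1 and 177 in Day 2 control gonads, where all controls lay above all RNAi libraries, and on the deposited log2 scale it fell by 1.08 and 0.67 (adjusted p 4.53e-10 and 0.00011, both of the authors' deposited table). A much lower gene, nhr-181, had 3.93, 2.28 and 6.24 reads in GFP-positive against 12.7, 8.46 and 8.89 in Day 2 control gonads; the authors' deposited table called it lower (-1.73, adjusted p 0.0036) and limma voom did not (adjusted p 0.081). These falls stood beside the lower sums of oocyte and germ cell markers given above, and the part of those cells in them was not tested.

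**Figure D3:**
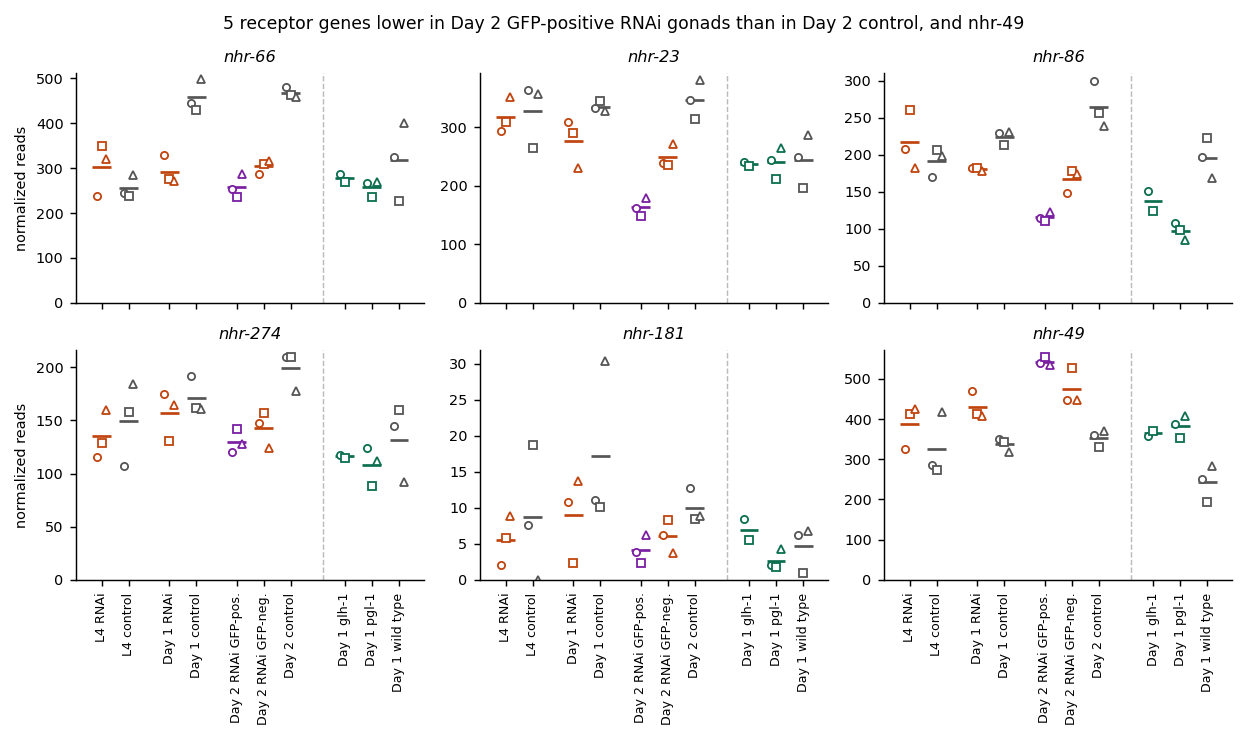
Normalized reads of nhr-49 and of the abundant receptors that fell in Day 2 RNAi gonads, by library. Points are libraries and bars group means; for nhr-23, nhr-86, nhr-66 and nhr-274 the Day 2 control libraries lie above all 6 Day 2 RNAi libraries, and for nhr-49 they lie below them, while nhr-181 stays at low levels throughout.

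Of 12 receptors with named counterparts in other animals, 8 belong to the set (nhr-6, nhr-8, nhr-23, nhr-25, nhr-41, nhr-48, nhr-85 and nhr-91). The authors' deposited table called 10 of the 12 higher and 1 lower in GFP-positive than in Day 2 control gonads, beside 52 and 36.6 percent of all genes reaching 10. The sets are not alike, since the rest of the 12 stay under 10. The genes nhr-6 and nhr-25 reached 10 in RNAi groups alone, which bears on their direction. NHR-48 is related to DAF-12, and nhr-48 had 355, 236.5 and 283 normalized reads in GFP-positive, 158, 165 and 169.8 in GFP-negative and 97.6, 97.1 and 64.4 in Day 2 control gonads. The 3 groups did not overlap, and the authors' deposited table gave 1.28 (adjusted p 3.58e-08) for GFP-positive and 0.73 (adjusted p 0.00076) for GFP-negative gonads against control. NHR-41, the relative of vertebrate TR2 and TR4, went with it: nhr-41 had 66.3, 68.5 and 79.0 reads in GFP-positive, 23.7, 38.6 and 31.5 in GFP-negative and 5.52, 4.48 and 4.71 in Day 2 control gonads, again without overlap, and a deposited log2 fold change of 3.36 for GFP-positive gonads (adjusted p 8.59e-21 in the authors' deposited table).

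Between the reporter groups, the authors' deposited table called 5 of 11 tested genes of this list higher and 1, nhr-23, lower in GFP-positive gonads, where 23.4 and 23.9 percent of all genes reaching 10 were called. NHR-25, which specifies epidermal cells and works in moulting and in the somatic gonad, is encoded by a gene with 44.9, 41.7 and 40.2 normalized reads in GFP-positive, 2.57, 13.8 and 1.46 in GFP-negative and 2.12, 2.49 and 4.19 in Day 2 control gonads. It was high in GFP-positive gonads, while GFP-negative libraries overlapped the controls, and no group but the GFP-positive one brought it to the minimum. The gene nhr-85, related to the insect receptor E75, had 75.0, 58.8 and 57.5 reads in GFP-positive, 11.3, 22.6 and 10.2 in GFP-negative and 4.24, 2.49 and 2.62 in Day 2 control gonads. It was higher in GFP-positive than in GFP-negative gonads by a deposited log2 fold change of 1.75 (adjusted p 1.12e-07 in the authors' deposited table), and all 3 groups stood apart. For nhr-91, related to vertebrate GCNF, the values were 85.5, 50.8 and 50.6 in GFP-positive, 15.95, 17.6 and 5.12 in GFP-negative and 0.849, 0.498 and 1.046 in Day 2 control gonads, and GFP-positive exceeded GFP-negative gonads by 1.84 (adjusted p 5.00e-07 in the authors' deposited table). The exons of nhr-85 overlap npr-14 and those of nhr-91 overlap glb-28. Of 7 epidermal and seam markers, the authors' deposited table called 6 higher and 1 lower in GFP-positive than in Day 2 control gonads, with sums of 951 to 1005 normalized reads in GFP-positive, 653 to 845 in GFP-negative and 524 to 570 in Day 2 control gonads. One of them, rol-6, is carried by the reporter array; without it the sums were 738 to 853 in GFP-positive, 629.6 to 817 in GFP-negative and 516 to 567 in Day 2 control gonads. Their part in these values was not tested.

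NHR-8 acts in cholesterol balance and resistance to toxins, and nhr-8 varied widely among L4 libraries, with 104.2, 3.46 and 6.67 normalized reads in L4 RNAi and 49.3, 16.03 and 20.8 in L4 control gonads. On Day 2 it had 24.0, 24.6 and 15.9 reads in GFP-positive, 8.75, 18.2 and 9.51 in GFP-negative and 3.39, 4.48 and 5.23 in control gonads, and GFP-positive gonads were called higher (1.82, adjusted p 0.00016 in the authors' deposited table). The GFP-negative call (1.24, adjusted p 0.032 in the authors' deposited table) was not made by limma voom (adjusted p 0.20). NHR-6, the NR4A receptor that shapes the spermatheca, is encoded by a low gene, with 10.5, 8.57 and 13.9 reads in GFP-positive, 8.75, 17.6 and 9.51 in GFP-negative and 2.12, 2.49 and 1.57 in Day 2 control gonads. It was among 3 genes highest in the GFP-negative group, and its averages in the RNAi groups were 10.97 in GFP-positive and 11.96 in GFP-negative gonads, whose libraries overlapped.

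All 15 receptors of the metabolic group, relatives of HNF4 with known roles in fat, diet or detoxification, belong to the set. The authors' deposited table called 12 of them higher and 2 (nhr-66 and nhr-86) lower in GFP-positive than in Day 2 control gonads, 11 higher and 2 lower in GFP-negative gonads, and 4 higher and 1 lower on Day 1. Over all genes reaching 10, the shares called higher were 52, 46.3 and 20.9 percent in these 3 comparisons, so the Day 1 count is near that of other genes. NHR-80 and NHR-13 share lipid targets with NHR-49. The gene nhr-80 had 0, 1.68 and 3.03 normalized reads in Day 1 control gonads, far below the 31.6, 26.7 and 20.8 of L4 control gonads. On Day 1 RNAi gonads had 4.49, 17.8 and 27.5 reads of it, all above the controls, and the authors' deposited table gave a log2 fold change of 2.11 (adjusted p 0.030). For nhr-13 the values were 63.2, 56.5 and 47.1 in GFP-positive, 22.1, 28.6 and 27.8 in GFP-negative and 29.3, 26.9 and 21.97 in Day 2 control gonads. GFP-positive libraries lay above the rest and GFP-negative libraries overlapped the controls (deposited log2 fold change 0.63, adjusted p 0.026, for GFP-positive against control in the authors' deposited table).

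NHR-10 and NHR-68 switch on the propionate shunt when vitamin B12 is short. The gene nhr-10 had 120.4, 121 and 129.7 normalized reads in GFP-positive, 68.95, 89.2 and 60.7 in GFP-negative and 20.4, 22.4 and 26.2 in Day 2 control gonads, 3 groups without overlap (deposited log2 fold change 1.96, adjusted p 2.24e-18, for GFP-positive against control in the authors' deposited table). The other, nhr-68, had 14.4, 17.1 and 20.1 reads in GFP-positive, 12.3, 23.1 and 9.51 in GFP-negative and 3.39, 1.49 and 4.19 in Day 2 control gonads. At L4 its highest library was an RNAi one, with 89.4, 5.76 and 15.6 reads in RNAi against 29.1, 18.7 and 27.8 in control gonads. NHR-114 protects the germline against a diet poor in B12, and nhr-114 had 55.4, 46.8 and 44.4 reads in GFP-positive, 25.7, 28.1 and 19.8 in GFP-negative and 11.03, 11.9 and 9.94 in Day 2 control gonads, a rise of 1.68 in the authors' deposited table for GFP-positive gonads (adjusted p 1.14e-07). Its average was highest at L4, with 74.6, 53.4 and 76.4 reads in L4 control gonads.

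NHR-31 promotes growth of the excretory canal, and nhr-31 had 105, 111.4 and 97.8 normalized reads in GFP-positive, 48.4, 52.9 and 61.5 in GFP-negative and 2.12, 2.49 and 5.23 in Day 2 control gonads. Both RNAi groups lay far above the controls, and the authors' deposited table gave 4.51 for GFP-positive (adjusted p 5.66e-31) and 3.79 for GFP-negative gonads (adjusted p 3.40e-19). NHR-76, which is needed for serotonin-driven fat loss, had a like pattern, with 134, 142 and 109 reads of nhr-76 in GFP-positive, 103, 103.6 and 58.5 in GFP-negative and 11.5, 6.97 and 5.76 in Day 2 control gonads (deposited log2 fold change 3.48, adjusted p 4.64e-30, for GFP-positive against control in the authors' deposited table). NHR-14 controls iron uptake, and nhr-14 had 49.7, 46.8 and 45.8 reads in GFP-positive, 13.9, 13.2 and 14.6 in GFP-negative and 1.27, 1.49 and 4.71 in Day 2 control gonads. NHR-62 is needed for the longer life under dietary restriction; nhr-62 had 68.5, 70.3 and 50.6 reads in GFP-positive, 22.1, 26.4 and 20.5 in GFP-negative and 1.27, 2.49 and 0.523 in Day 2 control gonads and reached the minimum in RNAi gonads alone. The last of this group, nhr-28, nhr-64 and nhr-69, averaged 71.2, 68.9 and 59.0 reads in GFP-positive and 4.96, 10.1 and 4.77 in Day 2 control gonads, and the authors' deposited table called each of them higher in GFP-positive gonads. The exons of nhr-69 overlap inx-20. Of 10 intestinal markers, the authors' deposited table called 10 higher in GFP-positive and 10 in GFP-negative gonads against Day 2 control and 1 in GFP-positive against GFP-negative gonads; their part in the metabolic receptors' values was not tested.

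Of 8 HNF4 relatives with roles in development, 7 belong to the set, and nhr-60 did not reach the minimum. The authors' deposited table called 7 of the 8 higher in GFP-positive than in Day 2 control gonads, 6 higher in GFP-positive than in GFP-negative gonads, and none lower in either. Among all genes reaching 10, a set without nhr-60, 52 and 23.4 percent were called higher. NHR-40 guides muscle development, and nhr-40 had 109, 64.5 and 65.9 normalized reads in GFP-positive, 26.2, 26.99 and 16.1 in GFP-negative and 26.7, 20.4 and 20.9 in Day 2 control gonads. GFP-negative and control libraries overlapped while the GFP-positive ones stood above both, with a deposited log2 fold change of 1.44 for GFP-positive against GFP-negative gonads (adjusted p 2.52e-06 in the authors' deposited table). The early embryonic receptor gene nhr-2 had 124, 142 and 97.8 reads in GFP-positive, 54.03, 71.1 and 44.6 in GFP-negative and 23.8, 19.9 and 26.7 in Day 2 control gonads, and rose by 1.90 in GFP-positive gonads (adjusted p 1.46e-14 in the authors' deposited table). For nhr-1 the values were 303, 258 and 249 in GFP-positive, 88.5, 122 and 109 in GFP-negative and 50.9, 42.8 and 35.1 in Day 2 control gonads, without overlap. The genes nhr-34, nhr-35 and nhr-88 averaged 114.4, 92.4 and 131 reads in GFP-positive gonads against 14.7, 6.41 and 17.8 in Day 2 control gonads, and each rose in both RNAi groups in the authors' deposited table. The exception, nhr-71, had 165, 133 and 105 reads in GFP-positive, 107, 99.7 and 74.6 in GFP-negative and 84.4, 68.2 and 66.4 in Day 2 control gonads. All 3 GFP-positive libraries were above the controls, while GFP-negative libraries overlapped both other groups. The authors' deposited table did not call it (0.41, adjusted p 0.084), and limma voom did (0.89 ± 0.19, SE, adjusted p 0.00052).

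The genes with the largest deposited folds for GFP-positive gonads are HNF4 relatives whose roles are little known. Of the first 5 in the authors' deposited table (nhr-213, nhr-183, nhr-59, nhr-45 and nhr-136), only nhr-45 reached the minimum in a control group, so the values of the other 4 are a description. Reads of nhr-213 numbered 137 over the 3 GFP-positive libraries and 0 over the 3 Day 2 control libraries, which makes it at least 52.3-fold higher per normalized read when 3 reads over the control group are taken as the floor. For nhr-59, 95 reads against 0 gave at least 36.2-fold. For nhr-183, 451 reads against 2 gave a ratio of 258, which rests on those 2 control reads. Far more abundant, nhr-45 had 253, 212 and 193 normalized reads in GFP-positive, 48.9, 68.3 and 38.05 in GFP-negative and 1.70, 1.99 and 2.62 in Day 2 control gonads, and nhr-3 had 300.1, 246 and 220.5 in GFP-positive, 44.3, 76.01 and 52.7 in GFP-negative and 4.67, 3.48 and 4.19 in Day 2 control gonads. In both genes the 3 groups were far apart, and the deposited log2 fold changes for GFP-positive against GFP-negative gonads were 1.77 and 1.85 (adjusted p 1.72e-16 and 1.12e-18 in the authors' deposited table). The largest deposited folds between the reporter groups were those of nhr-25 (2.24), nhr-238 (2.14), nhr-213 (2.08), nhr-183 (2.04) and nhr-3 in the authors' deposited table. Of these, nhr-25 reached the minimum in the GFP-positive group only. Over the 3 GFP-negative libraries nhr-238 and nhr-213 had 10 and 20 reads, against 91 and 137 in GFP-positive gonads. The choice of genes bears on the direction of such folds, so this ranking is a description. The 8 neuronal markers, unc-119 included, were all called higher in GFP-positive than in GFP-negative gonads in that deposited table, and their part in these receptors' values was not tested.

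**Figure D4:**
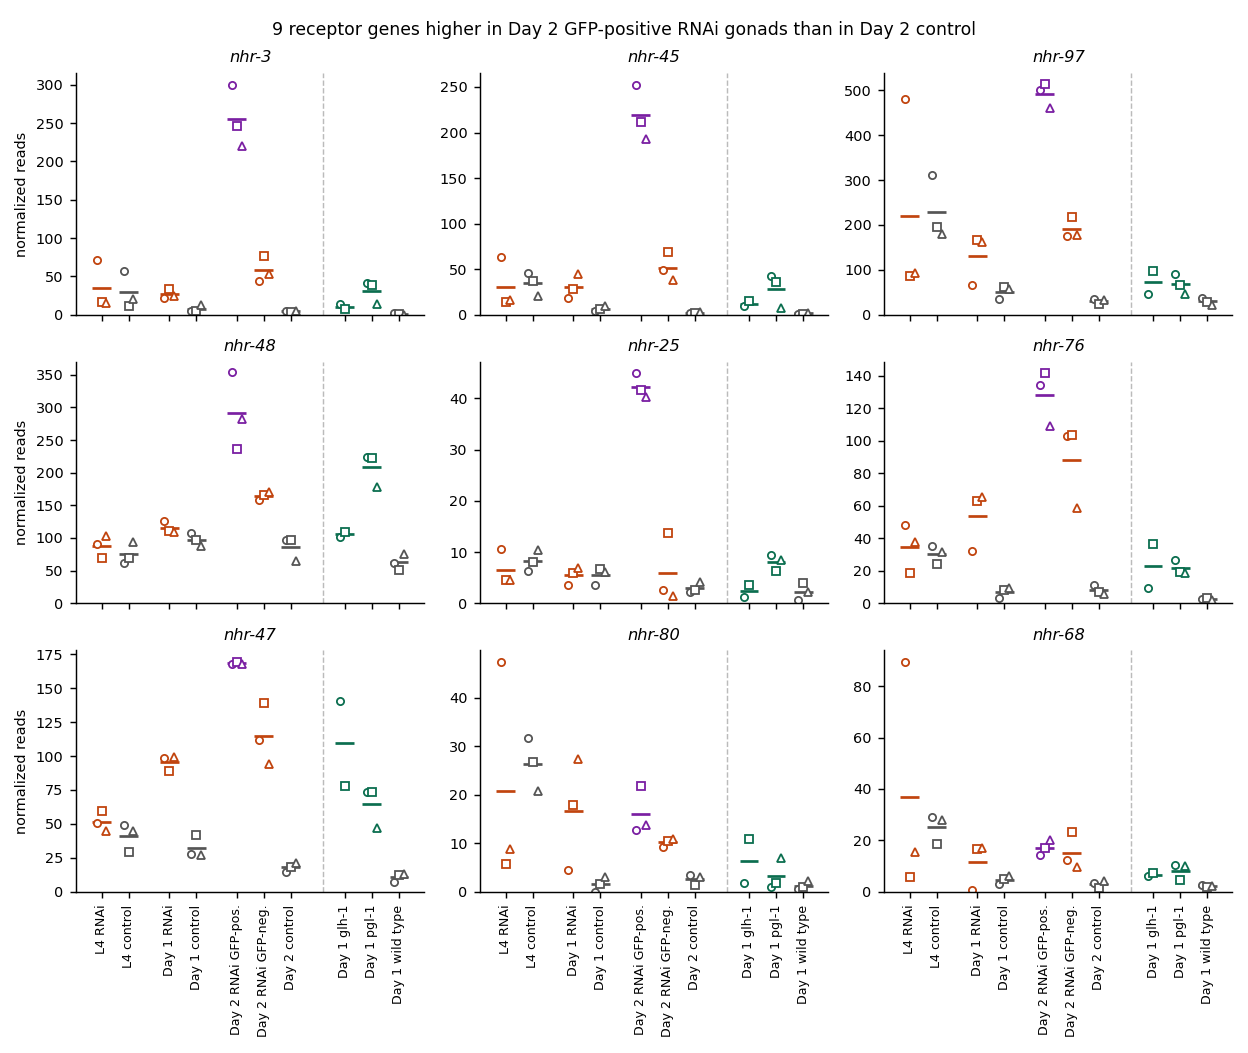
Normalized reads of receptors that were higher in Day 2 RNAi gonads, by library. Points are libraries and bars group means; nhr-3 and nhr-45 lie at 193 to 300.1 in GFP-positive libraries and at 1.70 to 4.67 in Day 2 control libraries.

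Not every receptor was called in GFP-positive against Day 2 control gonads. In the authors' deposited table nhr-49, nhr-71, nhr-15, nhr-12 and nhr-161 were not. Of these, nhr-15 had 34.02, 29.7 and 22.2 normalized reads in GFP-positive, 35.5, 40.2 and 36.6 in GFP-negative and 19.1, 17.9 and 20.4 in Day 2 control gonads. The 3 groups did not overlap, with the GFP-negative libraries on top; it was the only 1 of the 5 whose average was lower in GFP-positive than in GFP-negative gonads. For nhr-12 the values were 34.9, 40.6 and 24.96 in GFP-positive, 21.1, 22.03 and 14.6 in GFP-negative and 15.3, 17.9 and 28.8 in Day 2 control gonads, and the GFP-positive libraries overlapped the controls.

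In control gonads receptors were called less often than other genes between L4 and Day 1, and more were lower than higher. By limma voom, 22 receptors (16.9 percent) were lower and 2 (1.54 percent) higher in Day 1 control than in L4 control gonads. Among all genes reaching 10, 26.1 percent were lower and 9.9 percent higher. The median log2 fold change was -0.94 over the receptors and -0.28 over all such genes. The rule used these control averages, so the counts are a description. In L4 control 62 receptors reached 10, and in Day 1 control 38. Among those that fell were nhr-80 (-4.27 ± 0.92, log2 fold change ± SE, adjusted p 0.0031), nhr-31 (-3.33 ± 0.76, adjusted p 0.0046) and nhr-97 (-2.41 ± 0.59, adjusted p 0.0069). The gene nhr-97, with 311, 195 and 180.6 normalized reads in L4 control, 33.98, 61.3 and 57.7 in Day 1 control and 35.6, 23.4 and 33.5 in Day 2 control gonads, had the second-highest average of all receptors, in GFP-positive gonads (500.3, 513 and 460.4). The 2 that rose in Day 1 control were nhr-66, with 446, 430.2 and 498 reads in Day 1 control against 245, 238 and 285 in L4 control gonads (0.82 ± 0.16, adjusted p 0.0018), and nhr-2 (2.15 ± 0.65, adjusted p 0.023). Muscle markers summed to 493 to 1317 normalized reads in Day 1 control and 6106 to 9326 in L4 control gonads, and their part was not tested. These counts rest on single libraries: without library a of Day 1 control or library a of L4 control 4 and 5 receptors passed, and without library c of Day 1 control 44. Between Day 2 and Day 1 control gonads limma voom called no receptor, with 11 at an unadjusted p below 0.05, and 0.00777 percent of genes in each direction. In 21 of the 130 receptors every Day 2 control library lay below every Day 1 control library, and in 5 above. Over all genes reaching 10 these shares were 7.68 and 3.88 percent. On simulated data the test found 40 percent of 2-fold changes in this comparison.

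On Day 1 the authors' deposited table called nhr-66 lower in RNAi gonads. It called 17 of 110 tested receptors higher (15.5 percent), near the 20.9 percent of all genes reaching 10. Apart from nhr-80, those with a control group at the minimum included nhr-76, nhr-119, nhr-131, nhr-19, nhr-45, nhr-3, nhr-47 and nhr-97. The gene nhr-76 had 32.3, 62.9 and 65.2 normalized reads in Day 1 RNAi and 3.52, 8.40 and 9.10 in Day 1 control gonads (deposited log2 fold change 2.52, adjusted p 0.00011 in the authors' deposited table), and nhr-47 had 98.8, 88.9 and 99.5 against 28.1, 42.01 and 27.3 (deposited 1.37, adjusted p 0.0022 in the authors' deposited table). Neither pair of groups overlapped. In nhr-131, 33 reads over the RNAi libraries stood against 1 over the controls, a ratio of 47.4 with an exact 95 percent interval of 7.93 to 1926. Of the 17 calls, 14 were also made by limma voom; nhr-97 (adjusted p 0.18), nhr-3 (adjusted p 0.060) and nhr-121 (adjusted p 0.091) were not. Intestinal markers summed to 55158, 171966 and 212534 normalized reads in the 3 Day 1 RNAi libraries, the last being the shallow library named above, and to 24621 to 48861 in Day 1 control gonads, and the authors' deposited table called 5 of 10 higher. Other tissues differed as well. Sperm markers summed to 1162 to 2751 in Day 1 RNAi and 1.68 to 33.4 in Day 1 control gonads, and muscle markers to 2297 to 4145 and 493 to 1317. Somatic gonad markers summed to 574 to 868 and 147 to 278, and neuronal markers to 892 to 985 and 401 to 523. Oocyte markers were lower, with 17421 to 25034 and 35039 to 37700. The part of these tissues in the receptor calls was not tested. By limma voom the number of Day 1 receptor calls was 26, and it was 4, 10 and 50 without library a, b or c of Day 1 control and 10 without library b or c of Day 1 RNAi.

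At L4 no receptor passed, and 1 library decided the highest values. The gene nhr-97 had 479.8, 85.2 and 93.4 normalized reads in L4 RNAi gonads, where library a stood far above the other 2, and nhr-8 and nhr-68 showed the same library on top. That library also held 13463 normalized reads of muscle markers, against 3198 and 3517, and 7871 of oocyte markers, against 23869 and 23402. The difference between the RNAi effects on Day 1 and at L4, tested as an interaction by limma voom, passed for nhr-66 (-0.80 ± 0.23 log2, SE, adjusted p 0.049) and nhr-125 (5.42 ± 1.51, adjusted p 0.043). Among all genes reaching 10, 7.85 percent were higher and 0.249 percent lower in this test.

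The mutant gonads, which played no part in the choice of genes, gave 35 receptors higher and 1 lower in pgl-1 against wild-type gonads, of 123 tested in the authors' deposited table, where 24.4 percent of all genes reaching 10 were called higher and 9.94 percent lower. Among receptors at 10 or more in wild type itself, 7 of 26 were called higher and 1 lower in that deposited table (13.3 and 17.2 percent of all such genes). The largest deposited fold was that of nhr-45, with 42.4, 36.3 and 7.07 normalized reads in pgl-1 and 0.628, 0.974 and 2.24 in wild-type gonads. This amounts to 131 reads against 3, a ratio of 34.9 with an exact 95 percent interval of 11.7 to 171 (deposited log2 fold change 3.75, adjusted p 1.21e-05 in the authors' deposited table). Next came nhr-3 with 41.4, 38.1 and 14.1 against 2.51, 0.974 and 0 reads (3.68, adjusted p 2.07e-06 in the authors' deposited table) and nhr-119 with 29.9, 23.9 and 14.1 against 1.26, 1.95 and 0 (3.44, adjusted p 1.79e-05 in the same deposited table). In each of these genes every pgl-1 library was above every wild-type library.

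Among the receptors with named counterparts, nhr-48 rose most firmly in pgl-1 gonads, with 224, 222 and 178 normalized reads against 60.9, 50.7 and 76.1 in wild type (1.74, adjusted p 2.66e-10 in the authors' deposited table), while nhr-41, nhr-85 and nhr-91 rose by 1.86, 2.26 and 2.49 in that deposited table. In the metabolic group nhr-49, nhr-13, nhr-69, nhr-76, nhr-31 and nhr-62 rose by 0.66, 1.10, 1.93, 2.68, 2.81 and 2.96 (log2) in the authors' deposited table, and nhr-86 fell. Limma voom did not call nhr-13 (adjusted p 0.051). In the developmental group nhr-71, nhr-1, nhr-88, nhr-34 and nhr-35 rose by 0.92, 1.17, 1.88, 1.93 and 1.96 in the authors' deposited table. The remaining 17 that rose in the authors' deposited table were nhr-97 (1.14), nhr-15 (1.23), nhr-95 (1.88), nhr-19 (1.92), nhr-145 (2.05), nhr-134 (2.34), nhr-7 (2.35), nhr-230 (2.36), nhr-65 (2.46), nhr-79 (2.51), nhr-47 (2.52), nhr-50 (2.67), nhr-94 (2.67), nhr-132 (2.76), nhr-183 (2.81), nhr-11 (3.17) and nhr-57 (3.32). The last of them, a target of the hypoxia factor HIF-1, had 49 reads over the pgl-1 libraries and 1 over wild type, a ratio of 39.1 (exact 95 percent interval 6.70 to 1577). The count of limma voom calls for pgl-1 gonads was 49, and 16, 22 and 25 without library a of wild type, library b of wild type or library a of pgl-1. Intestinal markers summed to 34794 to 54345 normalized reads in pgl-1 and 10272 to 13605 in wild-type gonads, neuronal markers to 526 to 719 in pgl-1 and 252 to 352 in wild-type gonads, and germ cell markers to 3726 to 5348 in pgl-1 and 8022 to 9776 in wild-type gonads. The germ cell list holds pgl-1 and him-3, the genes mutated in this strain, and glh-1; without these 3 its sums were 2765 to 3868 in pgl-1 and 4775 to 5639 in wild-type gonads. The part of these cells was not tested.

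In glh-1(gk100) gonads the authors' deposited table called 4 of 69 tested receptors higher and none lower (6.83 and 2.53 percent of all genes reaching 10). They were nhr-47, with 141 and 78.2 normalized reads in glh-1(gk100) and 6.90, 12.7 and 13.4 in wild-type gonads (2.92, adjusted p 2.28e-08 in the authors' deposited table), nhr-119 (2.17, adjusted p 0.014), nhr-19 (2.00, adjusted p 0.018) and nhr-76 (1.91, adjusted p 0.033). In nhr-47 both mutant libraries lay far above all 3 wild-type libraries; in nhr-76 they had 9.66 and 36.4 reads against 2.51, 2.92 and 2.24, and limma voom did not call it (adjusted p 0.060). All 4 were also called higher on Day 1 of the RNAi experiment in the authors' deposited table, as were 82.1 percent of all genes reaching 10 that were called higher in glh-1(gk100) gonads. Among the 68 receptors that reach 10 in a control group, the authors' deposited table called 14 higher in Day 1 RNAi gonads and 23 higher in pgl-1 gonads. The 8 called in both were nhr-3, nhr-19, nhr-45, nhr-47, nhr-69, nhr-76, nhr-97 and nhr-119, which is 57.1 percent of these Day 1 calls and 34.8 percent of these pgl-1 calls. Over all genes reaching 10, shared calls made up 64.5 percent of the Day 1 and 55.3 percent of the pgl-1 calls. That set also holds genes that reach 10 in RNAi groups alone, so it is not filtered like these receptors. The shares are a description. Intestinal markers summed to 15816 and 65011 normalized reads in the glh-1(gk100) libraries a and b and 10272 to 13605 in wild-type gonads, and muscle markers to 721 and 1938 in glh-1(gk100) and 316 to 721 in wild-type gonads. The authors' deposited table called 3 of 9 tested intestinal and 3 of 5 tested muscle markers higher. Library b, with the higher level of nhr-76, is the one with the high intestinal sum, and the part of these tissues was not tested. The exons of nhr-47 overlap hpo-15 and those of nhr-19 overlap mrpl-53.

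**Figure D5:**
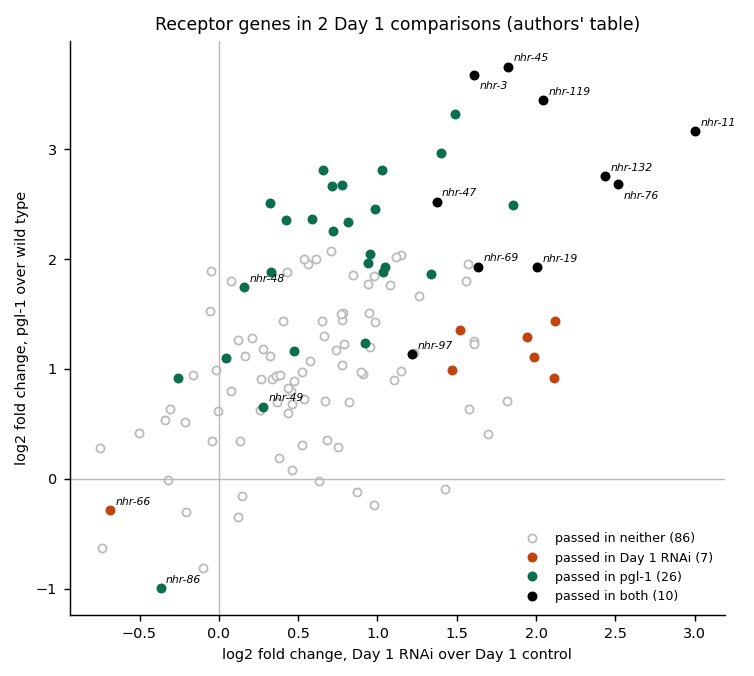
Deposited log2 fold changes of the receptors in Day 1 RNAi against Day 1 control and in pgl-1 against wild-type gonads, 1 point a gene, from the authors' deposited table. Of the genes with a value in both, 10 passed in both comparisons, 7 in Day 1 RNAi alone, 26 in pgl-1 alone and 86 in neither; these counts include receptors that reach the minimum in RNAi groups alone.

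Other genes of receptor signalling were read from lists of non-members. DAF-12, the receptor for dafachronic acid, followed the receptors above: daf-12 averaged 235.0 ± 30.2 normalized reads in GFP-positive, 76.6 ± 12.99 in GFP-negative and 5.03 ± 1.57 in Day 2 control gonads (SD, n = 3 each; deposited log2 fold change 5.06 for GFP-positive against control in the authors' deposited table). Of 4 tested receptors with other names, 3 were called higher and none lower in that comparison. Over all genes reaching 10, it had 52 percent called higher and 36.6 percent lower, and the lists given here were not held to that minimum. Among 6 coregulators 3 rose and 2 fell in GFP-positive gonads: din-1, a DAF-12 corepressor, and dpy-22, a Mediator subunit, rose by 2.61 and 2.31, while mdt-15, the Mediator subunit that works with NHR-49, and smo-1, the SUMO gene, fell by 0.60 and 1.30 in the authors' deposited table. The averages of mdt-15 were 787 in GFP-positive and 867 in Day 2 control gonads, so the size of its fall rests on the scale described above. Of 6 tested genes of dafachronic acid synthesis and cholesterol transport, 5 rose and emb-8 fell, and ncr-1, a Niemann-Pick C1 gene, averaged 288 ± 92.2 reads in GFP-positive, 193 ± 33.2 in GFP-negative and 4.19 ± 0.792 in Day 2 control gonads. Among 6 tested lipid targets of NHR-49 and NHR-80, the authors' deposited table called 4 higher and 1 lower: the desaturase genes fat-5 and fat-6 rose by 3.66 and 2.89, acs-2 and fmo-2 rose, and icl-1 fell by 0.94. The desaturase gene fat-7 was listed at 0 in every group; it is a close copy of fat-6, and reads of the 2 may have been assigned to 1 of them.

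All 7 moulting genes tested rose in GFP-positive against Day 2 control gonads in the authors' deposited table. In that comparison 52 percent of all genes reaching 10 were called higher and 36.6 percent lower. Among the 7 was lrp-1, which encodes a megalin-like receptor needed for moulting. The gene lrp-1 had 918 ± 74.1 normalized reads in GFP-positive, 236.4 ± 67.1 in GFP-negative and 31.7 ± 8.09 in Day 2 control gonads. In the methionine cycle, the authors' deposited table called 4 genes higher and 3 lower of 7 tested: sams-1 rose by 1.76 and its paralogs sams-3 and sams-4 fell by 1.99 and 1.10. The sams genes are close copies, so reads may be shared among them. Of 3 tested propionate shunt genes, alh-8 alone was called (0.49 in the authors' deposited table). In pgl-1 gonads the genes of these lists that passed in the authors' deposited table were daf-12, din-1, gei-8, ncr-1, ncr-2, fat-5, fat-6, acs-2 and lrp-1, which rose, icl-1, sams-3 and sams-4, which fell, and pmt-1 (0.81) and pmt-2 (0.96).

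By position, 71 of the 130 receptor genes (54.6 percent) lie on chromosome V, against 103 of the 153 nhr genes under the minimum (67.3 percent) and 25.1 percent of all protein-coding genes in the table. The X chromosome holds 16 of the 130 (12.3 percent), against 5.88 percent of the nhr genes under the minimum and 13.6 percent of protein-coding genes. Another nhr gene is the next protein-coding neighbour of 53 of the 130 genes and of 83 of the 153 under the minimum. The exons of 26 of the 130 overlap another protein-coding gene. In the authors' deposited categories 9 of the 130 are ubiquitous, 11 soma-specific, 1 germline-enriched (nhr-23) and 0 germline-specific or sperm genes, and 109 are in none of the 5; how these were drawn up was not found in the labels. The ubiquitous ones are nhr-49, nhr-66, nhr-46, nhr-10, nhr-31, nhr-61, nhr-40, nhr-138 and nhr-256. Measured by Pearson r of log2(average + 1) over the 7 group averages of the RNAi experiment, the genes most like nhr-49 among 12866 were F53F8.7 (r = 0.998), Y81B9A.2 (0.995), F43C11.9 (0.993), skr-13 (0.993) and K07G5.3 (0.991), and those most like nhr-97 were T14G8.3, unc-23, H18N23.2, kin-2 and tep-1 (0.997 to 0.998). The 7 points share their libraries, and the values are a description. Pearson r takes no account of the level or of the size of a change. F53F8.7, Y81B9A.2 and skr-13 averaged 0 normalized reads in L4 control and 16.8, 39.4 and 23.5 in GFP-positive gonads, whereas nhr-49 was abundant in controls too.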

How the data were processed

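RNA of dissected gonads was sequenced. Per the labels' protocols, RNA was depleted of ribosomal RNA and libraries were made with a kit for which no strand is stated. TopHat2 and DESeq2 were used, per the submitters' processing notes. Build, annotation and counting program were not stated there. The deposited table holds, per the file headers, 7 comparisons with a deposited log2 fold change and a deposited p-value adjusted by Benjamini-Hochberg, and a deposited mean expression. It also holds a signal for each group, which the authors made by averaging read counts divided by a factor per library. The deposited categories (0 or 1) have no unit.

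The deposited adjusted p (threshold 0.05) gave the calls. Because an average of 2 or 3 whole numbers over fixed factors has few solutions, whole reads of each library were recovered; the deposited mean expression was matched to a relative 1e-06 in 100 percent of the genes compared. Libraries are called a, b and c by falling depth, the order in which values are listed. A second test, limma voom (limma 3.58.1, R 4.3.3), used all groups of an experiment in 1 fit, genes whose mean reached 1 normalized read in any group (23460 and 15189 genes) and Benjamini-Hochberg adjustment; it gave the comparisons between stages. Tested on simulated data, it made false calls above the nominal share in 7 of 8 comparisons simulated, most between the Day 2 and Day 1 controls, and missed most changes of 2-fold at L4 and on Day 1. Nothing in the labels ties replicates to separate cultures; p-values measure the spread between samples, which may be technical. Intervals and the floor of 3 reads cover counting error only. Of the 181 genes with no values none was an nhr gene. Names, exon lengths, chromosomes and neighbours came from WBcel235 (release 115), with 6 names replaced; sequences were not used here. The receptors and gene lists were chosen with earlier results of these data known. Named in full are list members and, per comparison, the 5 highest and 5 lowest calls by deposited fold.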

Additional observations from a re-analysis of the deposited data

Results flagged for a closer look

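For 2 receptors the RNAi effect on Day 1 differed from that at L4 by the interaction test of limma voom. For nhr-66 the Day 1 effect minus the L4 effect was -0.80 (log2, adjusted p 0.049), with 3 of 3 RNAi libraries below the controls on Day 1 and overlapping groups at L4. For nhr-125 it was 5.42 (adjusted p 0.043), with 5.39, 20.2 and 27.5 normalized reads in Day 1 RNAi against 0, 3.36 and 0 in Day 1 control gonads, and 22.1, 1.15 and 0 in L4 RNAi against 21.5, 5.34 and 17.4 in L4 control gonads. Both lost the call when library b or c of L4 RNAi or of Day 1 RNAi was left out, and the exons of nhr-125 overlap R02D1.2.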

How the results depend on the processing

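No paired analysis was possible because the recovered libraries carry no replicate numbers. No result changed direction under the alternatives run. At an adjusted p of 0.01 the authors' deposited calls numbered 7 on Day 1 (18 at 0.05), 1 in glh-1(gk100) (4) and 16 in pgl-1 gonads (36). With each library left out in turn, the limma voom calls ranged from 4 to 50 on Day 1 (26 with all), 84 to 97 for GFP-negative (103) and 123 to 129 for GFP-positive gonads (128) against control, 48 to 74 between the reporter groups (81), 1 to 8 in glh-1(gk100) (6), 16 to 57 in pgl-1 (49), 4 to 44 for Day 1 against L4 control (24) and 0 to 25 for the Day 1 minus L4 difference (2). The lowest value between the reporter groups was without GFP-negative library a. Quality weights per library gave 6 at L4 (0), 50 on Day 1, 11 in glh-1(gk100), 66 for Day 1 against L4 control, 1 for Day 2 against Day 1 control (0) and 42 for the difference. Total read scaling gave 16 in glh-1(gk100). A filter of 5 reads gave 38 for Day 1 against L4 control and 5 for the difference, and no filter gave 0 for the difference. Without both Day 1 libraries c, a choice made after seeing the data, these 2 counts were 60 and 8. The causes were not tested. Depth limits genes near the minimum: at 10 normalized reads a shallow library holds few reads.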
